A study of Homo sapiens with 6 samples.

Results

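The genes described here were the 71 protein-coding genes, of 57820 genes in the deposited table, whose symbols begin with METTL (28 genes), TRMT (16 genes), ALKBH (8 genes), NSUN (6 genes), YTHD (5 genes), PUS and a digit (5 genes) or ADAR (3 genes). The set was selected on the value of *METTL13*, which was lower in the CTCF-dRBR than in the CTCF-WT libraries, so the difference of *METTL13* is given below as a description, with no test. Of the 71 members, 65 were expressed highly enough to be compared and 6 were not. *METTL16* and *METTL7A* stood next to *METTL13* in the size of the difference relative to its error, the first lower and the second higher in CTCF-dRBR. Members with GC-rich exons, among them *TRMT61A*, *TRMT1*, *TRMT2A* and *PUS1*, were mostly lower, and members with AT-rich exons mostly differed little. A trend over GC content ran through all genes and is not particular to the members. In the bin of highest GC content the median log2 fold change was −0.75 for members and −0.51 for all genes. In the bin of lowest GC content it was 0.16 and 0.27.

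RNA was taken from SEM, an established human B-cell acute lymphoblastic leukemia line, in which both the CTCF-WT and the CTCF-dRBR cells carry endogenous CTCF fused to miniAID-mClover3 together with OsTIR1(F74G), so that the auxin analog 5-Ph-IAA leads to its degradation. Exposure to 5-Ph-IAA lasted 24 h in every culture, and after the first 6 h doxycycline (1 µg/mL) induced an HA-tagged CTCF for the remaining 18 h, either wild-type or, in CTCF-dRBR, a mutant without the RNA-binding region (RBR). Each group had 3 total RNA libraries, and the comparison asks which genes differ when the induced CTCF lacks the RBR. The CTCF-WT libraries were assigned by their titles, because their other labels mention no HA-CTCF transgene. Neither the labels nor the methods say whether each line was 1 clone or whether the replicates were separate cultures, so p-values measure the spread between these libraries, which may be technical. In bulk RNA, fewer cells of a kind and less RNA per cell cannot be told apart.

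Cells modify their RNAs after transcription, and the members are the enzymes that write, erase or read these marks, along with relatives that act on proteins. METTL3 and METTL14 form the complex that puts N6-methyladenosine (m6A) on mRNA, ALKBH5 and FTO remove it, and proteins with a YTH domain bind it. TRMT, NSUN and PUS enzymes methylate or isomerize bases of tRNA, rRNA and other RNAs, ADAR enzymes deaminate adenosine in double-stranded RNA, and METTL13 methylates the translation elongation factor eEF1A. In leukemia, METTL3 and the m6A machinery are known for their role in keeping myeloid blasts undifferentiated.

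Total expected counts were between 51732177 and 53166735 in CTCF-WT and between 30034505 and 50457168 in CTCF-dRBR, where replicate 1 was the shallowest. A gene with no count could still have 3 counts by counting error alone, which is 0.0564 to 0.0999 CPM (counts scaled to library size) depending on the library. CTCF-dRBR replicate 1 stood apart, with a Spearman's rho of log2 CPM between 0.913 and 0.968 to the other libraries, across genes, which are not independent replicates. Results are therefore also given without it. The B-lineage genes *CD79A*, *PAX5* and *EBF1* were between 31.4 and 392 CPM in all libraries, *DNTT* was at most 0.291 CPM, and 10 of 11 markers of myeloid, T, erythroid and stromal cells were at most 0.611 CPM, the exception being *LYZ* at 5.35 to 6.58 CPM.

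The promoters of *METTL13*, *TRMT61A* and *METTL16* show the starting sequence of members on which the results below turn. CTCF takes its name from a CCCTC motif in DNA, and the capitals mark CCCTC or its reverse complement GAGGG. Each sequence runs from 250 bases before to 50 bases after the gene's start in RefSeq (GRCh38.p14), 5′ to 3′ on the gene's own strand. *METTL13* lies at chr1:171781410-171781709 (plus strand), *TRMT61A* at chr14:103528946-103529245 (plus strand) and *METTL16* at chr17:2511839-2512138 (minus strand).
METTL13: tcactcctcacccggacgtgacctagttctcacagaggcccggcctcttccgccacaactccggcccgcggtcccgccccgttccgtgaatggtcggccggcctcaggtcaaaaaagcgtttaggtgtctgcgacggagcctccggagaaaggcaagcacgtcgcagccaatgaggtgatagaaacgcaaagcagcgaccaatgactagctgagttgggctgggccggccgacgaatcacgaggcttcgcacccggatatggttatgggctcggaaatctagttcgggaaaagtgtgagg
TRMT61A: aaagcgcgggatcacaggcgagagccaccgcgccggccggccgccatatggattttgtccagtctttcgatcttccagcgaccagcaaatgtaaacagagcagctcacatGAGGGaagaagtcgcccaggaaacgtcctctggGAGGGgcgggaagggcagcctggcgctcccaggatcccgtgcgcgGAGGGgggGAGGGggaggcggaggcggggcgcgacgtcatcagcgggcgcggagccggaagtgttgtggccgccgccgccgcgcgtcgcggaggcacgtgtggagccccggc
METTL16: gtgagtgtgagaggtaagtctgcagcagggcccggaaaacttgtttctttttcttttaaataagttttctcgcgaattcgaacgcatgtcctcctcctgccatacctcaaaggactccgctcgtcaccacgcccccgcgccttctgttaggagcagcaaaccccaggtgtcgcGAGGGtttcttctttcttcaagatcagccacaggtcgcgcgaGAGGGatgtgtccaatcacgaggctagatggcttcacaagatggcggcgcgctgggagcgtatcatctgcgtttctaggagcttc
The letters were not in the window of *METTL13*, were present 4 times in that of *TRMT61A* and 2 times in that of *METTL16*, each time as GAGGG. A RefSeq promoter was matched for 59 of the 71 members, and 42 of these held the motif on either strand (71.2%), beside 71.2% of all 35093 promoters of this length. Among the 55 tested members with a promoter, the median log2 fold change was 0.09 for the 39 with the motif and −0.04 for the 16 without it. A CCAAT box was found in 40.7% of the members' promoters (24 of 59) and 34.6% of all, and TATAAA in 8.5% (5 of 59) and 11.5%. *METTL13* held 2 copies of CCAAT on its own strand. These matches describe letters, and whether any of them is a binding site was not tested.

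*METTL13* (ENSG00000010165.15) lies on chromosome 1 of GRCh37 from 171750800 to 171783163 on the plus strand, and a processed pseudogene (ENSG00000213060) shares 423 bases with it on the same strand. Normalized by TMM, its level in CTCF-WT replicates 1, 2 and 3 was 45.8, 51.4 and 43.2 CPM, whereas CTCF-dRBR replicates 1, 2 and 3 had 20.8, 16.4 and 15.7 CPM. All CTCF-dRBR libraries lay far below all CTCF-WT libraries, and the library that stood apart was the highest of its group. The means were 46.8 ± 4.17 CPM (SD, n = 3) and 17.7 ± 2.78 CPM, and the log2 fold change was −1.43 with a standard error (SE) of 0.15. Of the 14044 genes tested, 219 had a lower log2 fold change. Without CTCF-dRBR replicate 1 the log2 fold change of *METTL13* was −1.54, and with the trend over GC content removed from each library it was −1.34. In the deposited TPM, which are divided by gene length and scaled over all RNAs, small ones included, its values were 8.27, 11.74 and 17.63 in CTCF-WT and 9.32, 7.98 and 5.27 in CTCF-dRBR, and the groups overlapped. The share of TPM in protein-coding genes varied from 30.2% to 63.2% by library. Rescaled to the same total over protein-coding genes, *METTL13* had 27.3, 32.8 and 33.6 TPM in CTCF-WT and 14.7, 14.7 and 12.1 TPM in CTCF-dRBR, with no overlap.

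**Figure D1:**
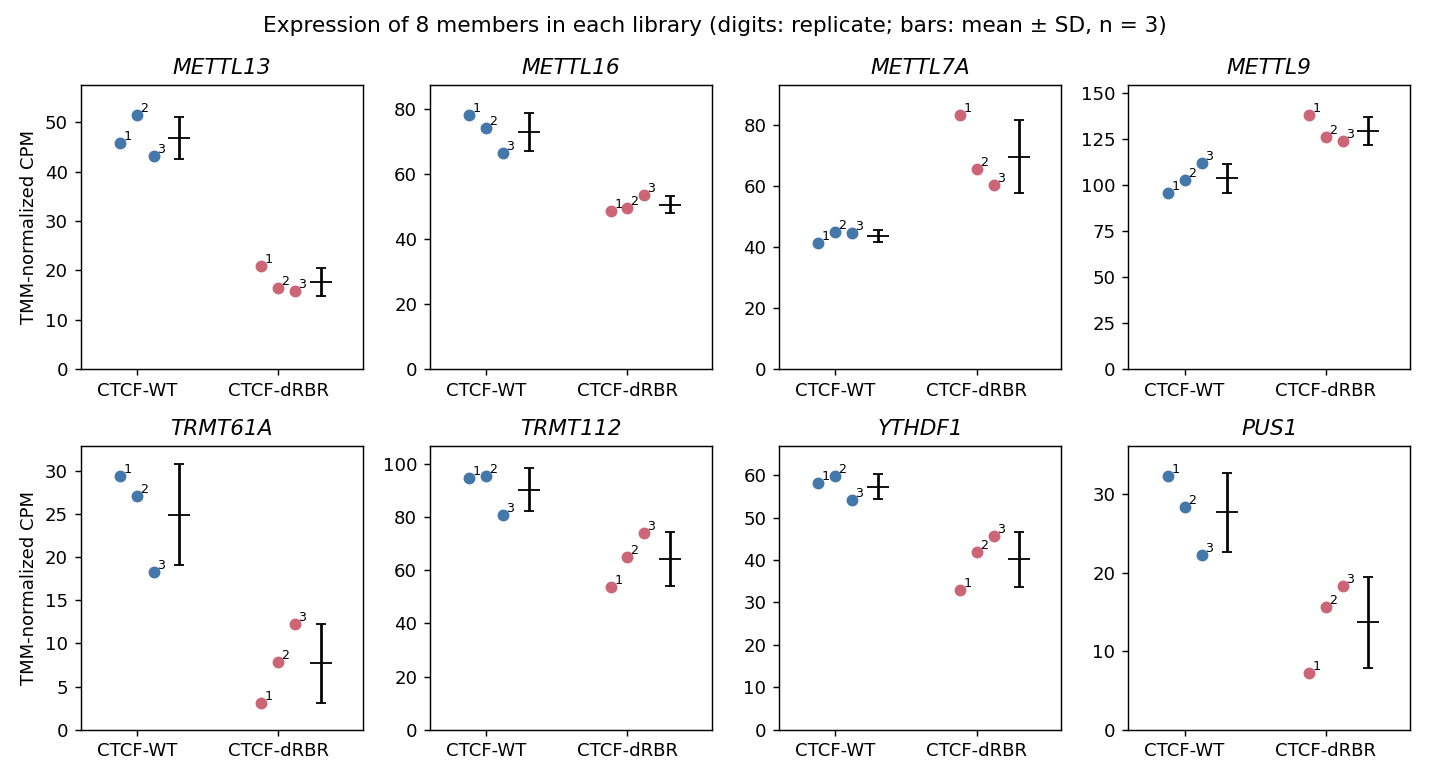
TMM-normalized CPM of 8 members in each library (points, with the replicate number), for CTCF-WT in blue and CTCF-dRBR in red, with the mean ± SD (n = 3) as black bars and all axes from 0. The groups do not overlap in any of the 8 genes: METTL7A and METTL9 are higher in CTCF-dRBR, the others lower, and in TRMT61A and PUS1 CTCF-dRBR replicate 1 is the lowest library, at 3.04 and 7.16 CPM.

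Besides *METTL13*, the eEF1A methyltransferases among the members are *METTL10* (now *EEF1AKMT2*) and *METTL21B* (now *EEF1AKMT3*), each of which methylates a lysine. *METTL10* had 29.6, 30.2 and 32.1 CPM in CTCF-WT and 40.6, 38.2 and 31.4 CPM in CTCF-dRBR, and the groups overlapped by 1 library. Its log2 fold change was 0.24 (SE 0.13, adjusted p = 0.252 from limma-voom, two-sided), and −0.09 with the GC trend removed. Another protein-coding gene model (ENSG00000258539) shares 43579 bases with it on the same strand. *METTL21B* overlapped, with 13.3, 13.6 and 14.4 CPM against 12.2, 13.6 and 13.8 CPM. The substrate *EEF1A1* had 16100, 16500 and 16800 CPM in CTCF-WT and 20100, 18000 and 18500 CPM in CTCF-dRBR, with a log2 fold change of 0.19 (SE 0.086, adjusted p = 0.212). *EEF1A2* had 0 counts in all 6 libraries, a level that allows up to 0.0999 CPM in the shallowest library.

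Across the whole table, limma-voom with Benjamini-Hochberg adjustment called 0 of 14044 genes at a threshold of 0.05, 0.0% higher and 0.0% lower, the lowest adjusted value being 0.0959. No member passed, and edgeR's quasi-likelihood test also called 0 genes, while DESeq2 called 5.38% of all genes higher and 6.14% lower. *METTL13* is left out of the following counts, which cover the other 64 tested members. DESeq2 called 1 of them higher (1.56%) and 7 lower (10.9%). At an unadjusted p under 0.05, 2 were higher (3.12%) and 12 were lower (18.8%), while 12.6% of all genes were higher and 12.8% lower. The groups were separate, with all CTCF-dRBR libraries higher, in 6 members (9.38%), beside 20.0% of all genes, and with all of them lower in 16 members (25.0%), beside 17.5% of all genes. The groups overlapped in the remaining 42. For 3 libraries against 3, the exact permutation test of CPM gives p = 0.1 at best (two-sided), and each separated member has that value. By sign, 31 were higher and 33 lower, and their median log2 fold change was −0.03, beside −0.01 over all genes. The median absolute log2 fold change was 0.228 in the 65 members and 0.328 over all genes.

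**Figure D2:**
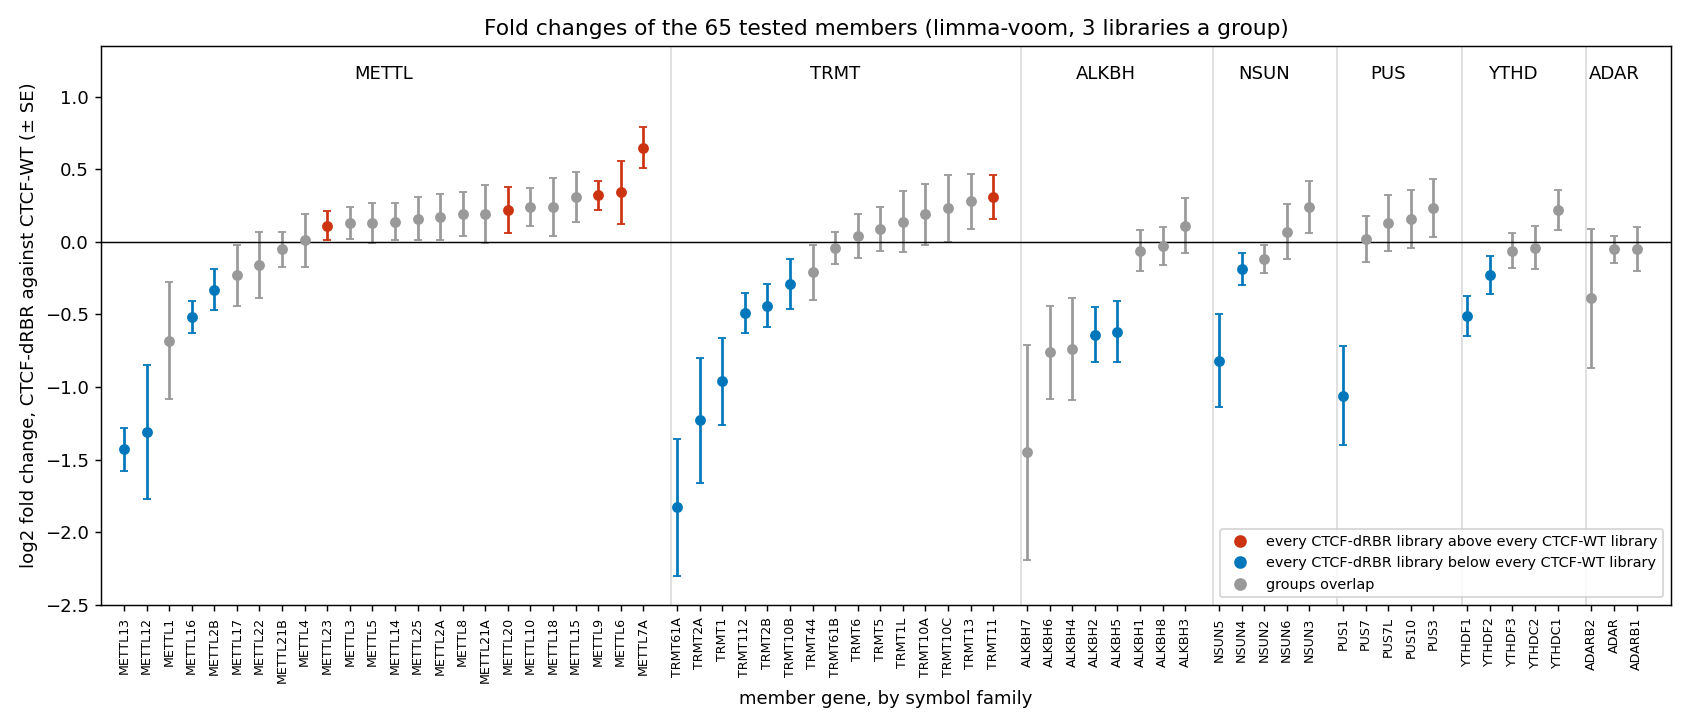
Log2 fold change of CTCF-dRBR against CTCF-WT ± SE (limma-voom, n = 3 libraries a group) for the 65 tested members, ordered within each symbol family. Red points mark the 6 members with all CTCF-dRBR libraries above all CTCF-WT libraries, blue points the 17 with all below (METTL13 included), and gray points the 42 with overlap, and most of the longest bars belong to the lowest members of each family.

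By family, the median log2 fold change was 0.14 for the 24 tested METTL genes, 0.13 for the 5 PUS genes, −0.04 for the 15 TRMT genes, −0.05 for the 3 ADAR genes, −0.06 for the 5 YTHD genes, −0.12 for the 5 NSUN genes and −0.63 for the 8 ALKBH genes. The METTL family held 5 of the 6 members that separated upward, 20.8% of its 24 tested genes, beside 20.0% of all genes. The TRMT family held 6 of the 16 other than *METTL13* that separated downward, 40.0% of its 15 tested genes, beside 17.5% of all genes. In 7 of the 8 ALKBH genes the sign was negative, with 2 separated downward (25.0%), beside the same 17.5%.

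The m6A methyltransferase core overlapped between the groups. *METTL3*, the catalytic subunit, had 73.5, 75.9 and 79.8 CPM in CTCF-WT and 74.3, 90.1 and 86.6 CPM in CTCF-dRBR, and *METTL14*, its RNA-binding partner, had 49.3, 49.2 and 53.6 CPM against 67.1, 53.3 and 50.1 CPM. In each gene 1 or more CTCF-dRBR libraries lay within the CTCF-WT range. Their log2 fold changes were 0.13 (SE 0.11, adjusted p = 0.399) and 0.14 (SE 0.13, adjusted p = 0.470), and −0.03 and −0.17 with the GC trend removed. Among their 6 partners in the writer complex, 2 had an unadjusted p under 0.05, both lower, where 12.8% of all genes were lower. They were *RBM15* at −0.33 and *RBM15B* at −0.47 (adjusted p = 0.185 and 0.182). With the GC trend removed *RBM15* was at −0.10 (adjusted p = 0.452), while *RBM15B* had no GC value and could not be corrected. *WTAP*, which holds the complex in nuclear speckles, had 125, 103 and 130 CPM in CTCF-WT and 121, 163 and 155 CPM in CTCF-dRBR, with a log2 fold change of 0.29 (adjusted p = 0.249).

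*METTL16*, a separate m6A methyltransferase that acts on U6 snRNA and on the *MAT2A* mRNA, differed more. It had 78.0, 74.1 and 66.4 CPM in CTCF-WT and 48.7, 49.4 and 53.6 CPM in CTCF-dRBR. The groups were separate, and the 3 CTCF-dRBR values were close together. The log2 fold change was −0.52 (SE 0.11, adjusted p = 0.108), the smallest adjusted p of any member other than *METTL13*. Without CTCF-dRBR replicate 1 it was −0.50 (adjusted p = 0.0478), and with the GC trend removed −0.50 (adjusted p = 0.0267). In the deposited TPM, however, *METTL16* had means of 12 and 12.2 and the groups overlapped, while in TPM rescaled over protein-coding genes they were separate, with means of 30.6 and 22.6.

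The m6A demethylase *ALKBH5* had 97.8, 96.0 and 81.1 CPM in CTCF-WT and 42.0, 62.9 and 74.9 CPM in CTCF-dRBR. Its groups were separate, but the CTCF-dRBR values spread widely, and the log2 fold change was −0.62 (SE 0.21, adjusted p = 0.164). It moved to −0.42 without CTCF-dRBR replicate 1 and to −0.10 with the GC trend removed. The other demethylase, *FTO*, was at 42.0 to 43.2 CPM in CTCF-WT and 40.4 to 43.2 CPM in CTCF-dRBR, for a log2 fold change of −0.02 (SE 0.092).

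Of the 5 YTH-domain readers, *YTHDF1* and *YTHDF2* were separated downward (40.0%, beside 17.5% of all genes) and the other 3 overlapped. *YTHDF1*, a cytoplasmic reader, had 58.1, 59.8 and 54.1 CPM in CTCF-WT and 33.0, 41.8 and 45.6 CPM in CTCF-dRBR, with a log2 fold change of −0.51 (SE 0.14, adjusted p = 0.140). It was −0.36 (adjusted p = 0.0342) with the GC trend removed and −0.40 (adjusted p = 0.0586) without CTCF-dRBR replicate 1. *YTHDF2*, which directs m6A mRNAs to decay, had 131, 120 and 126 CPM against 89.3, 114 and 119 CPM, and without CTCF-dRBR replicate 1 its log2 fold change of −0.23 became −0.11. In TPM rescaled over protein-coding genes *YTHDF2* overlapped, at 71.6, 68.9 and 74.4 TPM against 48.9, 74.2 and 73.6 TPM. The nuclear reader *YTHDC1* had 113, 110 and 127 CPM against 162, 127 and 122 CPM, which overlapped, and its log2 fold change was 0.22 (adjusted p = 0.299), or −0.07 with the GC trend removed. *YTHDF3* and *YTHDC2* had log2 fold changes of −0.06 and −0.04. These 2 readers, with AT-rich exons (40.1% and 36.8% GC), stood at −0.34 and −0.37 once the GC trend was removed, with adjusted p = 0.0354 and 0.0383.

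The largest negative value among the members belonged to *TRMT61A*, the catalytic subunit of the enzyme that makes 1-methyladenosine in the T loop of tRNA. It had 29.4, 27.1 and 18.3 CPM in CTCF-WT and 3.04, 7.85 and 12.2 CPM in CTCF-dRBR. The groups were separate, but both spread over more than the distance between their nearest libraries. The log2 fold change was −1.83 (SE 0.47, adjusted p = 0.133), −1.32 without CTCF-dRBR replicate 1 (adjusted p = 0.0519) and −0.96 with the GC trend removed (adjusted p = 0.0174). *TRMT61A* had the highest exonic GC content of the tested members, 64.7%. Its partner subunit *TRMT6*, with 41.7% GC, was at 15.7, 14.9 and 18.2 CPM against 19, 15.2 and 16.7 CPM, a log2 fold change of 0.04 (SE 0.15).

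*TRMT112*, a small protein that stabilizes several methyltransferases, among them METTL5, TRMT11 and ALKBH8, was the most highly expressed member per length, with a mean of 226 TPM over protein-coding genes. It had 94.8, 95.5 and 81.0 CPM in CTCF-WT and 53.9, 64.9 and 74.1 CPM in CTCF-dRBR, and *ESRRA* overlaps it from the opposite strand. Its log2 fold change was −0.49 (SE 0.14, adjusted p = 0.148), with a sign that turned, to 0.04, when the GC trend was removed. None of its 3 named partners was separated downward. *TRMT11*, which methylates a guanosine of tRNA, had 25.2, 28.4 and 29.3 CPM against 41.2, 34.0 and 29.7 CPM, just without overlap, and a log2 fold change of 0.31 (SE 0.15, adjusted p = 0.229). *METTL5*, the m6A methyltransferase of small-subunit rRNA, and *ALKBH8*, a wobble-uridine methyltransferase, both overlapped between the groups, at 0.13 and −0.03.

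Among the other tRNA methyltransferases, *TRMT1*, which dimethylates a guanosine, had 37.9, 38.2 and 30.6 CPM in CTCF-WT and 10.7, 19.3 and 26.1 CPM in CTCF-dRBR. The log2 fold change was −0.96 (SE 0.30, adjusted p = 0.151), and −0.33 (adjusted p = 0.0487) with the GC trend removed. *TRMT2A*, the cytosolic 5-methyluridine enzyme, followed the same order of libraries, with 45.6, 46.3 and 33.2 CPM against 7.89, 20.1 and 29.6 CPM. In both genes CTCF-dRBR replicate 1 was the lowest library, and both separated. The mitochondrial counterpart *TRMT2B* had 19, 18.3 and 18.5 CPM against 11.2, 15.4 and 14.5 CPM, a log2 fold change of −0.44 (SE 0.15, adjusted p = 0.164). Its groups overlapped in TPM rescaled over protein-coding genes, at 10.5, 10.8 and 10.9 TPM against 6.45, 10.6 and 9.13 TPM. *TRMT13*, a 2′-O-methyltransferase, had a log2 fold change of 0.28 (SE 0.19, adjusted p = 0.340) that turned to −0.14 with the GC trend removed, with 56.8 CPM in CTCF-dRBR replicate 1 and between 31.1 and 38.7 CPM in the other 5 libraries. The 7-methylguanosine pair was *METTL1*, at 7.05, 4.89 and 3.68 CPM against 1.67, 4.19 and 3.82 CPM, and its scaffold *WDR4*, at 16.0, 15.6 and 11.4 CPM against 3.71, 7.35 and 8.44 CPM. *METTL1* overlapped and *WDR4* did not, with log2 fold changes of −0.68 (SE 0.40, adjusted p = 0.283) and −1.17 (SE 0.32, adjusted p = 0.140). In total 20 of 21 members that act on cytosolic tRNA could be tested. Of these, 6 were separated downward and 2 upward, beside 17.5% and 20.0% of all genes.

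The 3-methylcytidine enzymes of tRNA pointed both ways. *METTL6*, which acts on serine tRNA, had 12.6, 11.9 and 12.7 CPM in CTCF-WT and 22.3, 13.9 and 13.3 CPM in CTCF-dRBR, separated upward, with a log2 fold change of 0.34 that was 0.13 without CTCF-dRBR replicate 1. *METTL2B* had 64.7, 65.1 and 65.7 CPM against 41.3, 54.9 and 58.3 CPM (log2 fold change −0.33), while its close paralog *METTL2A* had 28.4, 30.0 and 34.7 CPM against 43.3, 32.3 and 31.9 CPM (0.17). The expected counts of both were not whole numbers, so some of their reads were shared with another gene, not necessarily with each other, and a noncoding gene (ENSG00000273184) shares 17131 bases with *METTL2B* on the same strand. The sum of both genes averaged 96.2 ± 3.82 CPM in CTCF-WT, compared with 87.4 ± 2.81 CPM in CTCF-dRBR (SD, n = 3), without overlap. In TPM rescaled over protein-coding genes each of the 2 genes overlapped between the groups, *METTL2B* at 35.2, 37.8 and 40.1 TPM against 23.3, 33.1 and 39.2 TPM.

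The 8 members that act on mitochondrial RNA or the mitochondrial ribosome had log2 fold changes between −0.44 (*TRMT2B*) and 0.31 (*METTL15*). Of them 2, *TRMT2B* and *NSUN4*, were separated downward, beside 17.5% of all genes, while 6 overlapped. *METTL15*, a methyltransferase of mitochondrial rRNA, had 21.1, 23.4 and 27.9 CPM against 36.4, 28.9 and 26.5 CPM, the groups overlapped, and its log2 fold change was −0.01 with the GC trend removed. *TRMT10C* is the methyltransferase subunit of mitochondrial RNase P. It had 41.2, 44 and 50.6 CPM in CTCF-WT, and 77.3, 49.1 and 42.1 CPM in CTCF-dRBR, so only the library that stood apart lay above the CTCF-WT range. The other subunits of that enzyme differed in sign. *HSD17B10* had 70.2, 67.6 and 59.5 CPM against 35.2, 39.1 and 45.7 CPM, a log2 fold change of −0.71 (SE 0.13, adjusted p = 0.1), and −0.64 without CTCF-dRBR replicate 1 (adjusted p = 0.0426). *KIAA0391* (now *PRORP*), the nuclease subunit, had 34.2, 35.5 and 39.8 CPM against 56.6, 44.8 and 38.9 CPM, overlapping by 1 library.

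The 5-methylcytosine family held *NSUN2*, the most expressed of its members, at 116, 104 and 119 CPM against 99.3, 108 and 105 CPM, with overlap and a log2 fold change of −0.12 (SE 0.096). *NSUN5*, which modifies large-subunit rRNA, was separated, at 56.5, 60.7 and 47.5 CPM against 17.0, 32.9 and 45.9 CPM (log2 fold change −0.82, SE 0.32, adjusted p = 0.187). Its counts were also not whole, and with its pseudogenes *NSUN5P1* and *NSUN5P2* added, the groups overlapped, at 110 ± 12.5 CPM (SD, n = 3) and 82.1 ± 25.5 CPM.

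Of the 5 pseudouridine synthases, 1 was separated, downward (20.0%, beside 17.5% of all genes). *PUS1*, which acts on tRNA in the nucleus and mitochondria, had 32.3, 28.4 and 22.3 CPM in CTCF-WT and 7.16, 15.6 and 18.3 CPM in CTCF-dRBR. The groups were separate, and the log2 fold change was −1.06 (SE 0.34, adjusted p = 0.157), −0.70 without CTCF-dRBR replicate 1 (adjusted p = 0.0720) and −0.56 with the GC trend removed (adjusted p = 0.0416). *PUS7*, the most expressed of the 5, had 64.9, 71.6 and 82.5 CPM against 92.3, 66.9 and 66.5 CPM, a log2 fold change of 0.02 (SE 0.16). *PUS3*, *PUS7L* and *PUS10* all overlapped.

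The adenosine deaminases did not separate. *ADAR* had 342, 352 and 374 CPM in CTCF-WT and 316, 359 and 355 CPM in CTCF-dRBR, for a log2 fold change of −0.05 (SE 0.093, adjusted p = 0.703). *ADARB1* was between 11.9 and 15.6 CPM in all libraries, and *ADARB2*, the least expressed tested member by TPM, between 0.568 and 2.36 CPM.

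Among the ALKBH proteins that repair alkylated DNA, *ALKBH2* had 9.97, 9.74 and 9.66 CPM in CTCF-WT and 4.81, 6.57 and 7.55 CPM in CTCF-dRBR. The CTCF-WT values were nearly equal and the groups separate, with a log2 fold change of −0.64 (SE 0.19, adjusted p = 0.148), −0.48 without CTCF-dRBR replicate 1 (adjusted p = 0.0729) and −0.46 with the GC trend removed (adjusted p = 0.0411). *ALKBH3* overlapped. So did *ALKBH4*, *ALKBH6* and *ALKBH7*, which are not counted here among the DNA repair proteins. The log2 fold changes lay between −1.45 and 0.11 over these 4.

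The member with the largest positive value was *METTL7A*, a thiol methyltransferase of the endoplasmic reticulum and lipid droplets (chromosome 12 of GRCh37, 51317255 to 51326293, plus strand). It had 41.2, 45.0 and 44.6 CPM in CTCF-WT and 83.2, 65.5 and 60.4 CPM in CTCF-dRBR. The groups were separate by more than the spread within CTCF-WT, and CTCF-dRBR replicate 1 was the highest library. The log2 fold change was 0.65 (SE 0.14, adjusted p = 0.112), 0.53 without CTCF-dRBR replicate 1 (adjusted p = 0.0426) and 0.49 with the GC trend removed (adjusted p = 0.0265). It was separate upward in TPM as well, with means of 8.89 ± 2.61 and 18.1 ± 5.10 TPM (SD, n = 3). Another protein-coding gene model (ENSG00000289695) covers 7542 bases of *METTL7A* on the same strand.

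Of the 9 members that methylate proteins other than eEF1A, 7 were tested. Of these, 3 were separated upward and 1 downward, beside 20.0% and 17.5% of all genes. *METTL9*, a histidine methyltransferase, had 96.0, 103 and 112 CPM in CTCF-WT and 138, 126 and 124 CPM in CTCF-dRBR, with a log2 fold change of 0.32 (SE 0.10, adjusted p = 0.153), which was 0.11 (adjusted p = 0.342) with the GC trend removed. *METTL12* (now *CSKMT*), which methylates mitochondrial citrate synthase, had 31.2, 20.5 and 9.97 CPM against 5.57, 7.76 and 9.05 CPM. It was separated by less than 1 CPM, and its gene contains the small nucleolar RNA *SNORA57* and overlaps *LBHD1* on the opposite strand, so its counts are uncertain. Known substrates of METTL enzymes were listed beside them. *KIN*, substrate of METTL22, had 20.0, 19.6 and 22.3 CPM against 32.3, 26.7 and 23.5 CPM (log2 fold change 0.38, adjusted p = 0.186), and of the 6 substrates 1 was separated upward and 3 downward.

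In 6 members no comparison was possible. *METTL11B*, *METTL21C*, *METTL24*, *METTL7B*, *NSUN7* and *TRMT12* stayed under 1 CPM in every library, with counts between 0 and 12, and the highest value was 0.401 CPM for *TRMT12* in CTCF-dRBR replicate 1. No member passed the filter through 1 group alone. Of the tested members, *ADARB2* was nearest to the filter, with 2.36 CPM in its highest library.

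**Figure D3:**
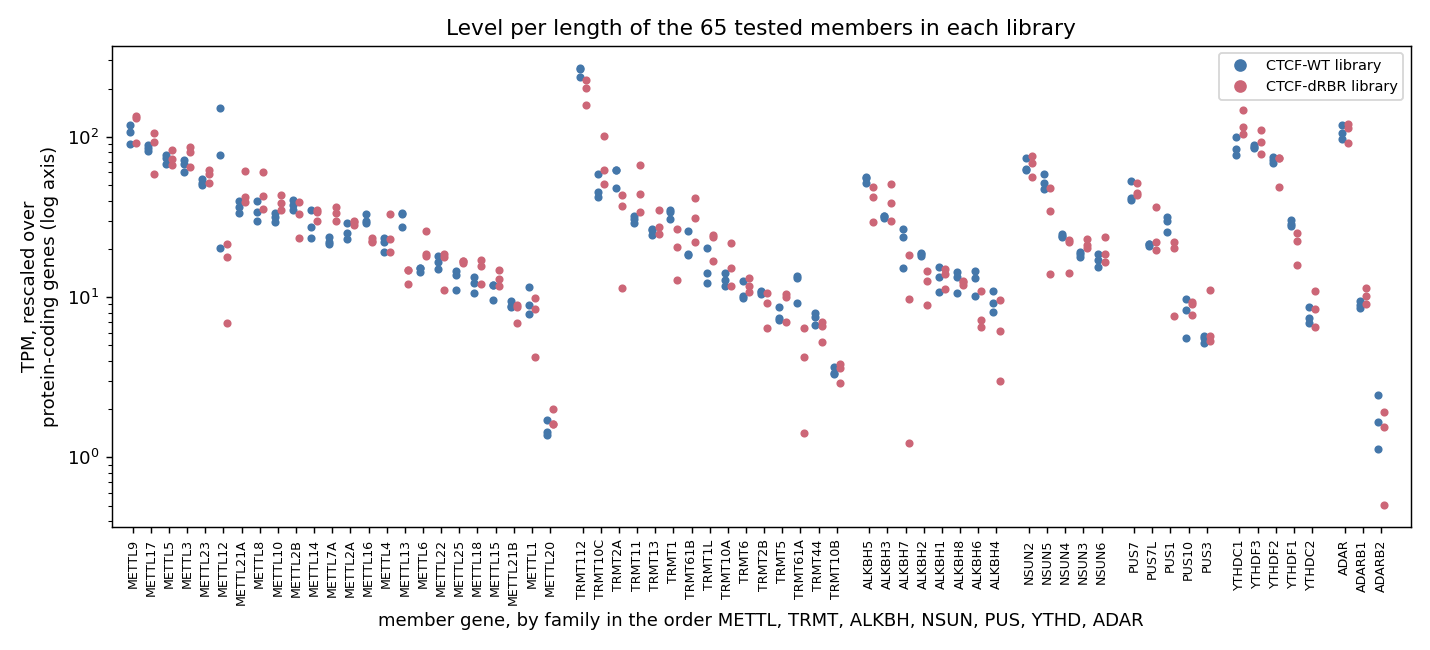
Level per length of the 65 tested members, as TPM rescaled to the same total over protein-coding genes on a log axis, with 1 point a library (CTCF-WT blue, CTCF-dRBR red). Levels run from means of 226 TPM for TRMT112 to 1.53 TPM for ADARB2, and in TRMT2A, TRMT61A, ALKBH7 and PUS1 a single CTCF-dRBR point lies far below the rest.

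Per length, the highest members by mean over all libraries were *TRMT112* at 226 TPM, *METTL9* at 113, *ADAR* at 108, *YTHDC1* at 105 and *YTHDF3* at 90.3 TPM, on the scale over protein-coding genes. The ranges of *METTL9*, *ADAR* and *YTHDC1* over all libraries overlapped one another on that scale. Between the groups, *METTL9* and *ADAR* overlapped there. *YTHDC1* was separated upward, with 77.2, 83.9 and 100 TPM in CTCF-WT and 147, 115 and 104 TPM in CTCF-dRBR. Summed over a family, the TRMT genes had 552, 565 and 545 TPM in CTCF-WT and 514, 509 and 500 TPM in CTCF-dRBR, without overlap. The 15 TRMT genes other than *TRMT112* had 288, 295 and 308 TPM against 356, 308 and 275 TPM, and these sums overlapped. The ALKBH genes had 174, 185 and 165 TPM against 123, 143 and 159 TPM, without overlap. The METTL sum was 855 ± 23.4 and 850 ± 48.2 TPM, and the groups overlapped.

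The members' fold changes followed the GC content of their exons. Spearman's rho between the log2 fold change and GC content was −0.80 over the 65 tested members and −0.68 over 13654 genes with a GC value, a description over genes that share the same 6 libraries. Of the 28 members in the lowest of 3 equal bins of GC content over all genes (under 43.1%), 3 were separated upward and 0 downward, beside 38.1% and 3.67% of all genes in that bin, with a median log2 fold change of 0.16. In the middle bin, 3 of 21 were separated upward and 9 downward (*METTL13* included), beside 19.7% and 20.4% of all genes, with a median of −0.12. Of the 16 members above 52.1%, 0 were separated upward and 8 downward, beside 2.35% and 28.2% of all genes, with a median of −0.75. The medians of all genes in the same bins were 0.27, 0.01 and −0.51. The libraries themselves differed along GC content: the rho of a library's deviation in log2 CPM against GC was 0.709, 0.674 and 0.339 in CTCF-WT replicates 1, 2 and 3, and −0.78, −0.417 and 0.504 in CTCF-dRBR replicates 1, 2 and 3. Part of the GC trend thus runs along the groups, and what it has to do with the RBR cannot be told apart from a difference between libraries.

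**Figure D4:**
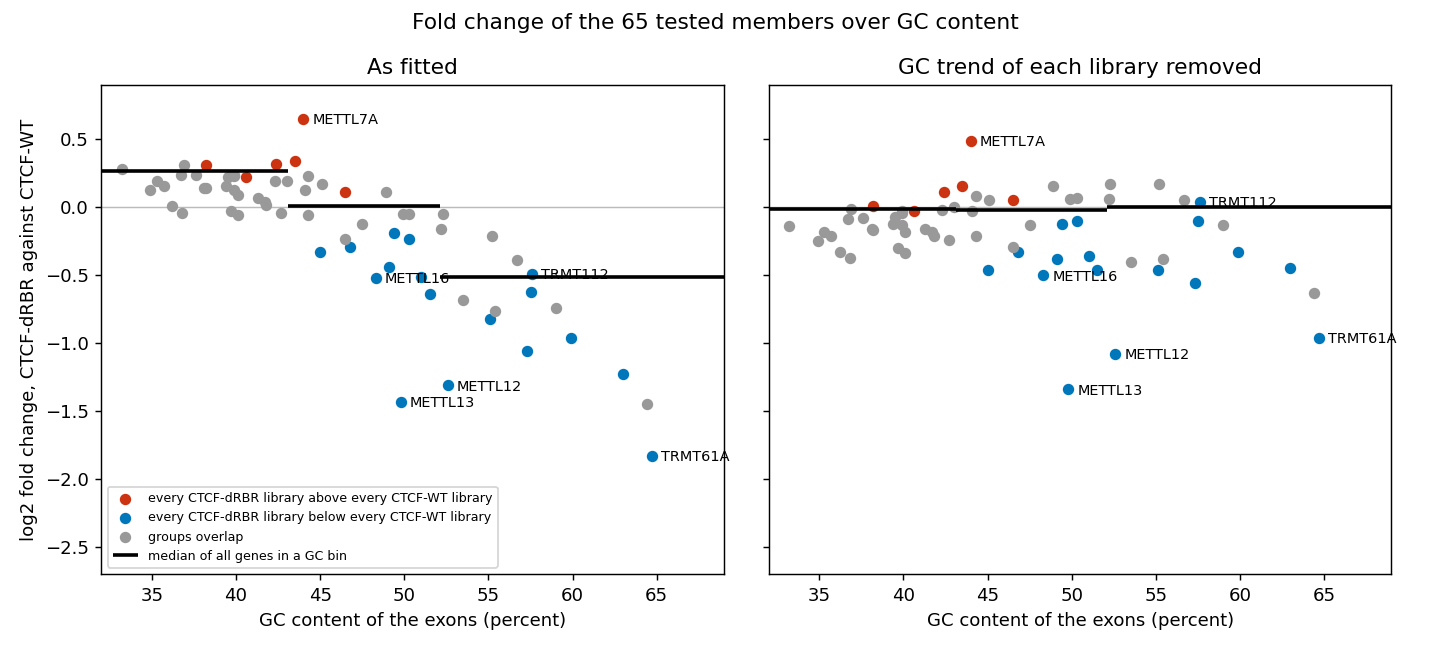
Log2 fold change (CTCF-dRBR against CTCF-WT) of the 65 tested members over the GC content of their exons, as fitted at left and after each library's trend over GC content was removed at right; colors mark separated and overlapping groups in CPM as fitted, and black lines the median of all genes in each of 3 bins of GC content. The members slope downward at left (Spearman's rho −0.80) and little at right (−0.15), where METTL13 at −1.34 and METTL7A at 0.49 are the outermost.

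With the GC trend removed, the rho over members was −0.15, and 11 of the 64 members other than *METTL13* passed an adjusted p under 0.05. *METTL7A* was the 1 member higher (1.56%), while 3.97% of all genes were called higher. The 10 lower (15.6%) were *METTL16*, *METTL4*, *ALKBH2*, *PUS1*, *TRMT61A*, *TRMT1*, *TRMT2A*, *YTHDF1*, *YTHDF3* and *YTHDC2*, beside 5.27% of all genes called lower. The median log2 fold change of these 64 members was −0.14 under that correction. With all GC content left in but CTCF-dRBR replicate 1 left out, 1 of the 64 was called higher (*METTL7A*) and 1 lower (*METTL16*), against 1.52% and 2.37% of all genes, and the rho with GC content was −0.61. With both changes together, 1 of the 64 was called higher and 15 lower (23.4%), against 10.3% and 13.3% of all genes.

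**Figure D5:**
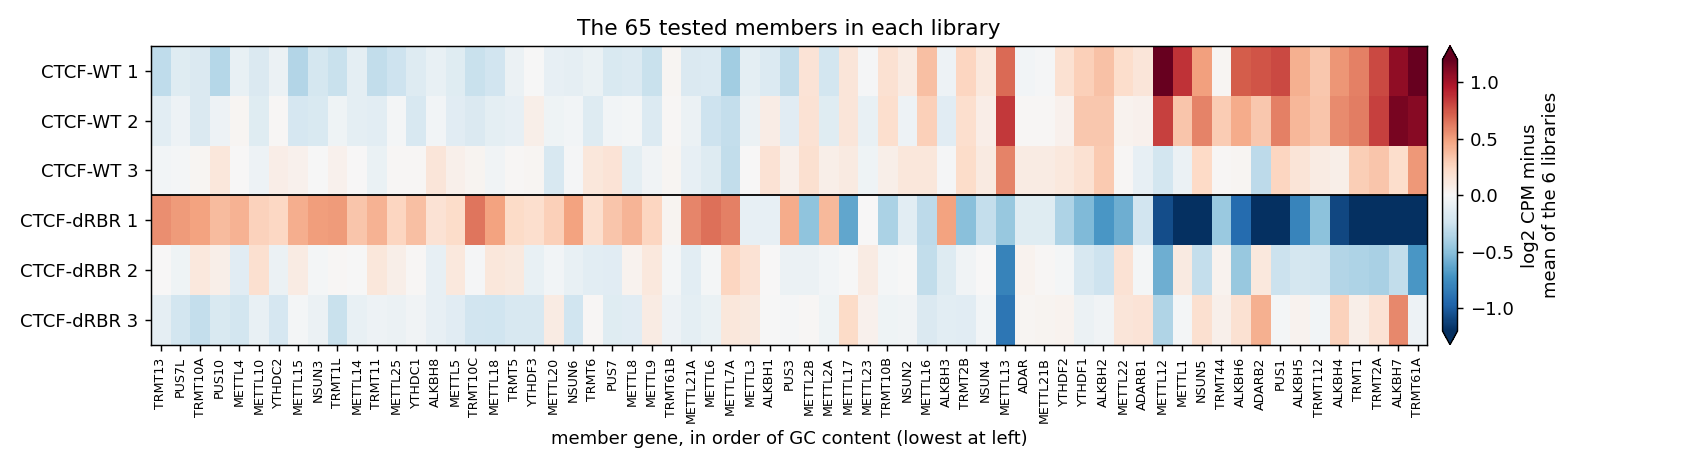
Log2 CPM of the 65 tested members in each of the 6 libraries minus the mean of the 6, with members in order of GC content and the color scale ending at ± 1.2. CTCF-dRBR replicate 1 is red at the AT-rich end and blue at the GC-rich end, CTCF-WT replicates 1 and 2 go the other way, and METTL13 differs in all 3 libraries of each group.

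Other genes of the same pathways were listed by role. Of 89 such genes 86 were tested, and 0 passed limma-voom at an adjusted p under 0.05, while DESeq2 called 0 higher and 15 lower (17.4%), beside 5.38% and 6.14% of all genes. At an unadjusted p under 0.05, 1 was higher (*KIN*) and 32 were lower (37.2%), beside 12.6% and 12.8% of all genes. The groups were separate upward in 6 (6.98%) and downward in 37 (43.0%), beside 20.0% and 17.5% of all genes. Their median log2 fold change was −0.20 and their median GC content 46.1%, beside −0.01 and 46.9% over all genes tested. With the GC trend removed, 0 were called higher and 17 lower (20.0%), beside 3.97% and 5.27% of all genes. Without CTCF-dRBR replicate 1, 0 were called higher and 4 lower (4.65%), beside 1.52% and 2.37% of all genes.

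Of the 8 pseudouridine synthases outside the PUS symbols, 6 had an unadjusted p under 0.05, all lower, where 12.8% of all genes were lower. *DKC1*, the catalytic subunit of box H/ACA ribonucleoproteins, had 166, 151 and 166 CPM in CTCF-WT and 110, 118 and 123 CPM in CTCF-dRBR, for a log2 fold change of −0.46 (SE 0.093, adjusted p = 0.108). On the scale of TPM over protein-coding genes, *DKC1* overlapped between the groups. It had 132, 131 and 155 TPM in CTCF-WT and 165, 121 and 114 TPM in CTCF-dRBR. Of the 13 wobble uridine enzymes, 6 were lower at that threshold, of 18 further tRNA methylation genes 6, of 11 other tRNA modification genes 5, and of the 7 genes of the KEOPS complex and its cofactor supply 0. *NAT10*, the cytidine acetyltransferase, had 94.1, 95.9 and 89.2 CPM against 62.0, 59.8 and 63.4 CPM. Its 3 CTCF-dRBR libraries were close together and far below CTCF-WT, with a log2 fold change of −0.59 (SE 0.087, adjusted p = 0.0959), −0.60 without CTCF-dRBR replicate 1 (adjusted p = 0.0330). With the GC trend removed the log2 fold change was −0.42 (adjusted p = 0.0537). In TPM rescaled over protein-coding genes, however, *NAT10* overlapped between the groups, at 44.7, 50 and 63.4 TPM in CTCF-WT and 74.1, 42.1 and 44.6 TPM in CTCF-dRBR, and the mean was not lower (52.7 and 53.6 TPM). Of 8 cap methyltransferases and their partners, 2 were lower at an unadjusted p under 0.05, beside the same 12.8% of all genes, and *CMTR2*, which methylates the ribose of a cap-proximal nucleotide, had 57.7, 64.0 and 66.7 CPM against 93.2, 75.6 and 68.6 CPM (log2 fold change 0.31, adjusted p = 0.209).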

How the data were processed

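Total RNA of 3 CTCF-WT and 3 CTCF-dRBR libraries was measured by RNA-seq (labels: single-end; methods: paired-end). Per the labels and methods, the authors trimmed reads with Trim Galore 0.6.3, aligned them to hg19 with STAR 2.7.9a and quantified genes with RSEM 1.3.1. The deposited expected counts are not normalized and need not be whole. The deposited TPM are divided by gene length and scaled by the authors over all genes. Of the 57820 genes, those under 1 CPM in all libraries were removed, which left 14044. Counts were normalized by TMM (edgeR 4.0.16) and compared by limma-voom (limma 3.58.1, R 4.3.3) without covariates, two-sided, with Benjamini-Hochberg adjustment over all genes tested (threshold 0.05), as in the study. Single genes were compared by exact permutation of CPM. GC content came from the GRCh37 genome and a Gencode annotation lifted to it, for 97.2% of tested genes. Each library's deviation in log2 CPM (prior count 1) was fitted by loess over GC (span 0.5, degree 2) and subtracted. Alternatives included edgeR's quasi-likelihood test and DESeq2 (1.42.0) on rounded counts, quality weights, other normalizations and filters, TPM with pseudocounts of 1 and 0.1, each library left out, and the replicate number as a block. Some of the fits were also run on simulated counts, but not those of TPM or those with a library left out. The simulated counts held no GC trend and no library that stood apart. They therefore cannot show how the fits deal with either.

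The members, lists and tests were chosen with earlier results of these data known. Named were *METTL13*, in each direction the 8 other members with the smallest unadjusted p, known pairs and complexes, the readers, the deaminases, the member with the highest TPM of each family, members near the filter, and companion genes chosen by role or by the smallest unadjusted p (3 in each direction). *RBM15*, *RBM15B*, *HNRNPA2B1*, *METTL4*, *METTL12*, *TRMT2A*, *NSUN5*, *METTL2A*, *METTL2B* and the genes listed by calls were named after their values were seen. Of 71 members, 42 are overlapped by a gene on the opposite strand, and whether counting used the strand is not given in the sources used here. Of the 2 rows of *KIAA0391*, the one with more counts was used.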

Additional observations from a re-analysis of the deposited data

How the results depend on the processing

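In the fit reported, 0 members were called higher and 0 lower. DESeq2 called 1 and 8 (5.38% and 6.14% of all genes), and voomWithQualityWeights 14 and 19 (32.5% and 35.8% of all genes). Removal of the GC trend gave 1 and 11 (3.97% and 5.27%), and removal without CTCF-dRBR replicate 1 gave 1 and 16 (10.3% and 13.3%). Each of these lower counts includes *METTL13*, whose value selected the set, so its calls are not a test. Among the other 64 tested members, lower calls were 7 with DESeq2 (10.9%) and 18 with voomWithQualityWeights (28.1%). They were 10 with the GC trend removed (15.6%) and 15 with that and without CTCF-dRBR replicate 1 (23.4%). Lower calls were 2 with limma-trend on log2(TPM + 1) and 3 on log2(TPM + 0.1), beside 0.762% and 0.883% of all genes. Leaving out 1 library gave 0 to 1 higher and 0 to 2 lower (0 to 1 other than *METTL13*), all of them without CTCF-dRBR replicate 1 (1.52% and 2.37% of all genes). Companion genes called lower were 15 with DESeq2, 17 with the GC trend removed, 31 with that and without CTCF-dRBR replicate 1, 49 with voomWithQualityWeights (22 higher) and 0 to 4 with 1 library left out, the 4 again without CTCF-dRBR replicate 1. Where a count moved, the cause was not tested. The deviations of same-numbered libraries correlated at −0.341, 0.099 and −0.471. The libraries also differed along GC content, so these values cannot tell whether same-numbered libraries were prepared together. The fit with the number as a block called 0 members and 0 companion genes, both with the GC trend left in and with it removed. In either case 0 of all genes were called.

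Of 53 named genes, 30 kept their direction in all alternatives run and 23 reversed in some. Values from TPM are relative to the median of all genes, which was 0.404 (pseudocount 1) and 0.539 (0.1). With the GC trend removed, reversed log2 fold changes were 0.06 (*ADAR*), 0.17 (*ADARB1*), 0.05 (*ADARB2*), −0.09 (*METTL10*), −0.17 (*METTL14*), −0.01 (*METTL15*), 0.07 (*METTL21B*), −0.03 (*METTL3*), −0.33 (*METTL4*), −0.13 (*METTL5*), −0.21 (*PUS7*), −0.04 (*TRMT10C*), 0.04 (*TRMT112*), −0.14 (*TRMT13*), −0.18 (*TRMT6*) and −0.07 (*YTHDC1*). With the block added these were 0.05 (*ADAR*), 0.17 (*ADARB1*), 0.08 (*ADARB2*), −0.10 (*METTL10*), −0.17 (*METTL14*), −0.02 (*METTL15*), 0.07 (*METTL21B*), −0.03 (*METTL3*), −0.33 (*METTL4*), −0.14 (*METTL5*), −0.21 (*PUS7*), −0.02 (*TRMT10C*), 0.04 (*TRMT112*), −0.14 (*TRMT13*), −0.18 (*TRMT6*) and −0.07 (*YTHDC1*). Without CTCF-dRBR replicate 1 and its trend they were 0.05 (*ADAR*), 0.14 (*ADARB1*), 0.24 (*ADARB2*), −0.01 (*METTL10*), −0.14 (*METTL14*), 0.05 (*METTL21B*), −0.02 (*METTL2A*), −0.35 (*METTL4*), −0.08 (*METTL5*), −0.24 (*PUS7*), −0.14 (*TRMT10C*), −0.15 (*TRMT13*), −0.15 (*TRMT6*) and −0.05 (*YTHDC1*). Other reversals were 0.06 (*ADAR*), 0.11 (*ADARB1*), 0.25 (*FTO*), 0.03 (*NAT10*), 0.05 (*NSUN2*), 0.08 (*YTHDC2*) and 0.15 (*YTHDF3*) with TPM + 1, 0.09 (*ADARB1*), 0.16 (*FTO*), −0.06 (*METTL5*), −0.01 (*PUS7*), 0.06 (*YTHDC2*) and 0.02 (*YTHDF3*) with TPM + 0.1, 0.02 (*ADAR*), 0.02 (*ADARB1*), 0.05 (*ALKBH8*), 0.06 (*FTO*), 0.02 (*METTL21B*), 0.04 (*YTHDC2*) and 0.02 (*YTHDF3*) without normalization, 0.03 (*ADAR*), 0.02 (*FTO*), 0.0022 (*METTL21B*), −0.14 (*METTL4*), 0.01 (*NSUN2*) and −0.08 (*PUS7*) with quality weights, 0.09 (*ALKBH8*), 0.10 (*METTL21B*) and 0.02 (*YTHDF3*) without the length trend, −0.06 (*METTL4*), −0.07 (*PUS7*) and −0.03 (*TRMT6*) without a filter, 0.004 (*FTO*) over protein-coding genes only. With 1 library left out at a time, log2 fold changes that reversed in some case ranged from −0.09 to 0.0019 (*ADAR*), from −0.15 to 0.03 (*ADARB1*), from −0.71 to 0.02 (*ADARB2*), from −0.11 to 0.04 (*ALKBH8*), from −0.04 to 0.02 (*FTO*), from −0.16 to 0.13 (*METTL4*), from −0.13 to 0.11 (*PUS7*), from −0.03 to 0.13 (*TRMT6*), from −0.15 to 0.05 (*YTHDC2*) and from −0.17 to 0.02 (*YTHDF3*).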

Other observations

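Beyond the protein-coding members, 16 rows with these symbol prefixes are pseudogenes, antisense or other noncoding genes, of which 4 were expressed highly enough to be tested. *NSUN5P1*, a transcribed pseudogene of *NSUN5*, had 47.9, 45.1 and 38.5 CPM in CTCF-WT and 33.8, 43.0 and 48.6 CPM in CTCF-dRBR, about as much as *NSUN5* itself, and the groups overlapped (log2 fold change −0.06, adjusted p = 0.818 from limma-voom). *NSUN5P2* had 11.9, 12.3 and 9.58 CPM against 4.86, 8.23 and 12 CPM, also with overlap. *YTHDF3-AS1*, the noncoding neighbor of *YTHDF3*, was separated downward at a low level, with 0.897, 1.01 and 1.02 CPM against 0.535, 0.737 and 0.757 CPM (log2 fold change −0.50, SE 0.23, adjusted p = 0.212). *METTL15P1* overlapped, with a log2 fold change of 0.29 (adjusted p = 0.542).

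Of the other readers of RNA methylation, *HNRNPA2B1* (named after its values were seen) had 405, 292 and 260 CPM in CTCF-WT and 245, 174 and 163 CPM in CTCF-dRBR. It was an AT-rich gene (40.1% GC) that was lower, against the direction of AT-rich genes as a whole, with a log2 fold change of −0.72 (SE 0.22, adjusted p = 0.151), −0.90 without CTCF-dRBR replicate 1 (adjusted p = 0.0513) and −1.0 with the GC trend removed. *IGF2BP1* and *IGF2BP2* were under 1 CPM in all libraries, while *IGF2BP3* had 104 to 125 CPM in CTCF-WT and 118 to 163 CPM in CTCF-dRBR.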
